A study of Drosophila melanogaster with 15 samples.

Results

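The genes of glycolysis, the pathway that splits glucose into pyruvate, were followed in Drosophila melanogaster embryos after a low dose of gamma rays. Members were taken from a list of 9 enzyme genes by symbol: a probe set counted where the platform's gene table gave it exactly 1 symbol and that symbol was on the list. This found 7 genes, each with 1 probe set, of 11981 genes named in this way on the array: Hex-A (CG3001), Pgi (CG8251), Pfk (CG4001), Tpi (CG2171), Gapdh1 (CG12055), Pgk (CG3127) and Eno (CG17654). The list's other genes, Gapdh2 and PyK, are not analysed here. Of the 7 probe sets, 3 carry the suffix s_at, with which the manufacturer marks probes shared between transcripts of more than 1 gene or isoform, so paralogs may add to their signal.

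Pooled w[1118] embryos, from a white-eyed laboratory strain, were compared in 5 groups of 3 Affymetrix arrays. The irradiated groups had received 500 µGy at 22.4 mGy/h, 5, 30, 60 or 90 min before freezing, and the control group 0 µGy. In all groups eggs had been laid over 1 h and kept for 3 h at 23 °C, giving embryos of 3 to 4 h at freezing, so that a longer time after irradiation also means a younger embryo at irradiation and the 2 cannot be told apart. The labels letter the biological replicates A, B and C in each group, called replicate sets below, each with 4 irradiated arrays and 1 control array. Values are array intensities per probe set, with nearly the same trimmed mean on every array as deposited, and differences are on the log2(intensity + 1) scale. An array of RNA from whole embryos cannot tell fewer cells of a type from less RNA per cell.

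Glycolysis starts when hexokinase phosphorylates glucose and passes through phosphofructokinase, its main control point, before aldolase and triose phosphate isomerase yield the triose phosphates. Glyceraldehyde-3-phosphate dehydrogenase, phosphoglycerate kinase, phosphoglycerate mutase, enolase and pyruvate kinase then carry the carbon to pyruvate with a gain of ATP and NADH. In the fly the mother loads glycolytic transcripts into the egg, and later in embryogenesis the genes of the pathway are turned on as a group under the nuclear receptor ERR, which prepares the larva for growth.

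The 3 arrays of a group were far from alike, and the array of set B at 90 min stood apart from its set. Over all probe sets, deviations from the group mean correlated between same-letter control and irradiated arrays at 0.217 to 0.665 for the groups at 5, 30 and 60 min. At 90 min the correlation was 0.501 in set A and 0.311 in set C, but -0.299 in set B. The hybridisation spike-ins were brighter on 7 arrays, all 5 of set C and those of set B at 60 and 90 min (11.36 to 11.74 on the log2 scale), than on the other 8 (10.72 to 11.09). Median intensities ran from 29.05 to 43.32, and the 7 glycolysis probe sets lay between the 64.8th and 99.3rd percentile of their arrays, so all passed the filter on dim probe sets.

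The mean level of the 7 glycolysis genes was highest on 3 arrays: the 90 min array of set B and the control arrays of sets C and A. The mean of the 7 centred log2 values was 0.94 on the 90 min array of set B, 1.25 on the control array of set C and 0.87 on the control array of set A. On the other 12 arrays it lay between -0.88, at 5 min in set B, and 0.20, at 5 min in set C. The control array of set B was among the low ones, at -0.63, so irradiated and control arrays overlapped in the mean level of the pathway. In set B the 90 min array thus had a mean glycolysis level like that of the other sets' controls and the control array did not. Single genes departed from the mean. Hex-A had 354.2 on the 90 min array of set B, its median over the 15 arrays. Pgi had 516.7 on the control of set C, against a median of 569.4. For Pfk and Eno the 5 min array of set C (1428 and 9495) exceeded the control of set A (1265 and 8669). Whether the control and 90 min arrays of set B carry the right labels was not tested. The contrasts with control and the effects within set B rest on the labels as given.

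**Figure D1:**
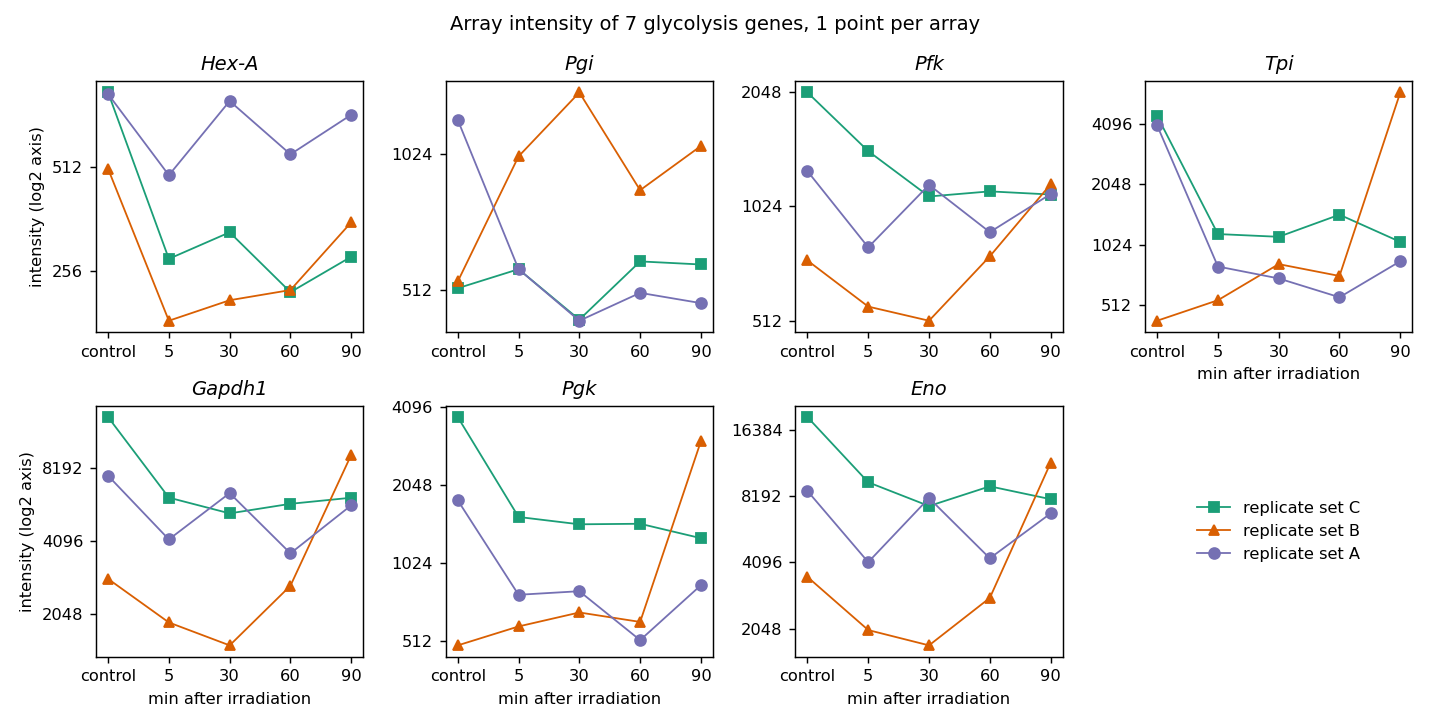
Array intensity (log2 axis) of the 7 glycolysis genes in control embryos and at 5, 30, 60 and 90 min after irradiation (axis positions not to scale in time); each point is 1 array and a line joins the arrays of a replicate set. For Tpi, the 90 min array of set B (5901) and the control arrays of sets C and A (4505 and 4042) stand above the other 12, which lie between 427.4 and 1447.

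The first steps of the pathway are catalysed by hexokinase, glucose-6-phosphate isomerase and phosphofructokinase. Hex-A, which encodes a hexokinase that traps glucose in the cell, had intensities of 277, 331.1, 221.4 and 281 at 5, 30, 60 and 90 min in set C, against 848 in the control of that set. Set B gave 182.7, 209.7, 224.6 and 354.2 in irradiated embryos, against 507.5 in the control. In set A they were 486.1, 800.4, 559.4 and 729.9 in irradiated embryos, against 838.9 in the control. Hex-A was thus below the control of its own set on 12 of 12 irradiated arrays, and it was the one glycolysis gene for which this held. Across sets the groups overlapped, since 3 irradiated arrays of set A exceeded the control of set B.

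Pgi, glucose-6-phosphate isomerase, which turns glucose 6-phosphate into fructose 6-phosphate, had intensities of 569.2, 440.4, 592.2 and 583 over the irradiated times in set C, against 516.7 in the control. Set B had 1010, 1398, 850.6 and 1065 in irradiated embryos, against 534.7 in the control. Set A gave 569.4, 438, 504.7 and 479 in irradiated embryos, against 1216 in the control. The 5 high arrays of Pgi were therefore the 4 irradiated arrays of set B and the control of set A, and sets B and A ran in opposite directions.

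Pfk, which encodes phosphofructokinase, had intensities of 1428, 1085, 1119 and 1098 over the irradiated times in set C, against 2037 in the control. In set B they were 557, 511.3, 755.2 and 1168 in irradiated embryos, against 736.4 in the control. Set A had 797.5, 1164, 874.2 and 1101 in irradiated embryos, against 1265 in the control. Pfk was below the control of its set on 10 of 12 arrays, the exceptions being the 60 and 90 min arrays of set B.

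The enzymes of the lower part of the pathway act from the triose phosphates onward. Tpi, triose phosphate isomerase, which interconverts the 2 triose phosphates, had intensities of 1158, 1122, 1447 and 1058 over the irradiated times in set C, against 4505 in the control. Set B gave 541.1, 819.5, 715.1 and 5901 in irradiated embryos, against 427.4 in the control. Set A gave 797.4, 695.1, 559.8 and 847.3 in irradiated embryos, against 4042 in the control. The highest Tpi value was 13.81 times the lowest, and both came from set B: the 90 min array and the control array.

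Gapdh1, glyceraldehyde-3-phosphate dehydrogenase, which makes the NADH of the pathway, had intensities of 6181, 5319, 5827 and 6175 over the irradiated times in set C, against 13316 in the control. Set B had 1881, 1512, 2670 and 9293 in irradiated embryos, against 2849 in the control. Set A had 4150, 6452, 3634 and 5745 in irradiated embryos, against 7615 in the control. The 4 irradiated arrays of set C lay close together and all below their control.

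Pgk, phosphoglycerate kinase, which forms ATP from the product of the step before, had intensities of 1538, 1441, 1448 and 1274 over the irradiated times in set C, against 3731 in the control. In set B they were 582.2, 659.1, 606 and 3013 in irradiated embryos, against 492.2 in the control. In set A they were 771.1, 795.9, 515.6 and 839.5 in irradiated embryos, against 1783 in the control. The order of arrays resembled that of Tpi, with the control of set B again the lowest of all 15.

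Eno, enolase, which makes phosphoenolpyruvate, had intensities of 9495, 7401, 9100 and 7952 over the irradiated times in set C, against 18809 in the control. Set B gave 2016, 1717, 2824 and 11636 in irradiated embryos, against 3520 in the control. Set A gave 4110, 8047, 4279 and 6847 in irradiated embryos, against 8669 in the control. Eno and Gapdh1 were each below the control of their set on 11 of 12 arrays, the 90 min array of set B being the exception in both, while Tpi and Pgk were below it on 8 of 12 and Pgi on 5 of 12.

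Averaged over the irradiated groups, the glycolysis genes were lower than in control embryos in the fit to all 15 arrays, but none passed the test. In a linear model of the 5 groups (limma), with Benjamini-Hochberg adjustment over 11261 probe sets and a threshold of 0.05, 0% of probe sets were called for the 4 irradiated groups averaged and set against control, 0% at each of 5, 30, 60 and 90 min, and 0% for a linear slope over the 4 times. Unadjusted p was under 0.05 for 404 probe sets in the mean contrast, for 296, 165, 278 and 180 at the 4 times and for 150 in the slope. As a share of the 11261 probe sets, each count is smaller than the 0.05 that chance alone would give. Of the 7 glycolysis genes, Hex-A was the one with an unadjusted p under 0.05 in the mean contrast.

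All 7 differences of the mean contrast were negative, with a median of -0.60, where 46.1% of all tested probe sets were lower and their median was 0.04. Hex-A averaged 8.43 ± 0.72 on the log2 scale in irradiated embryos (SD, n = 12) and 9.48 ± 0.42 in control embryos (SD, n = 3), a difference of -1.05 ± 0.46 (SE; 95% interval -2.04 to -0.06; limma adjusted p = 0.978). Tpi averaged 9.96 ± 0.91 in irradiated and 10.95 ± 1.92 in control embryos, a difference of -0.99 ± 0.67 (95% interval -2.44 to 0.46). The spread of Tpi among the 3 control arrays alone exceeded the difference. Eno differed by -0.63 ± 0.58, Gapdh1 by -0.60 ± 0.50, Pgk by -0.60 ± 0.56 and Pfk by -0.41 ± 0.35. Pgi differed by -0.08 ± 0.41, and its interval of -0.96 to 0.81 allows a change in either direction. Pgk turned to 0.06 without the control of set C, and Pgi to 0.33 without the control of set A.

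All 7 estimates were below 0 at 5, 30 and 60 min, with medians of -0.86, -0.83 and -0.79. Those of Pgi were near 0, at -0.01, -0.11 and -0.13. Over all probe sets tested the medians were 0.07, 0.07 and 0.06, and 44.8%, 44.0% and 45.7% were lower. At 90 min 5 of the 7 estimates were below 0, that of Pgk at -0.01, and the median was -0.06. Over all probe sets the median was then 0.05 and 45.9% were lower. These comparisons share the 3 control arrays. The median at 90 min rested on single arrays: it was -0.40 without the 90 min array of set B, 0.12 without the control of set A and 0.41 without the control of set C. Without the control of set C, the median of the mean contrast was -0.10, and without the control of set B it was -1.25.

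For Hex-A the fitted differences from control were -1.29 ± 0.58 at 5 min, -0.90 ± 0.58 at 30 min, -1.23 ± 0.58 at 60 min and -0.77 ± 0.58 at 90 min (SE; limma adjusted p from 0.998 to 1). In a fit that paired arrays by letter, the mean difference of Hex-A stayed at -1.05 with an SE of 0.25 and an adjusted p of 0.104, so the call did not change. Leaving out each array in turn moved it between -1.29 and -0.92.

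**Figure D2:**
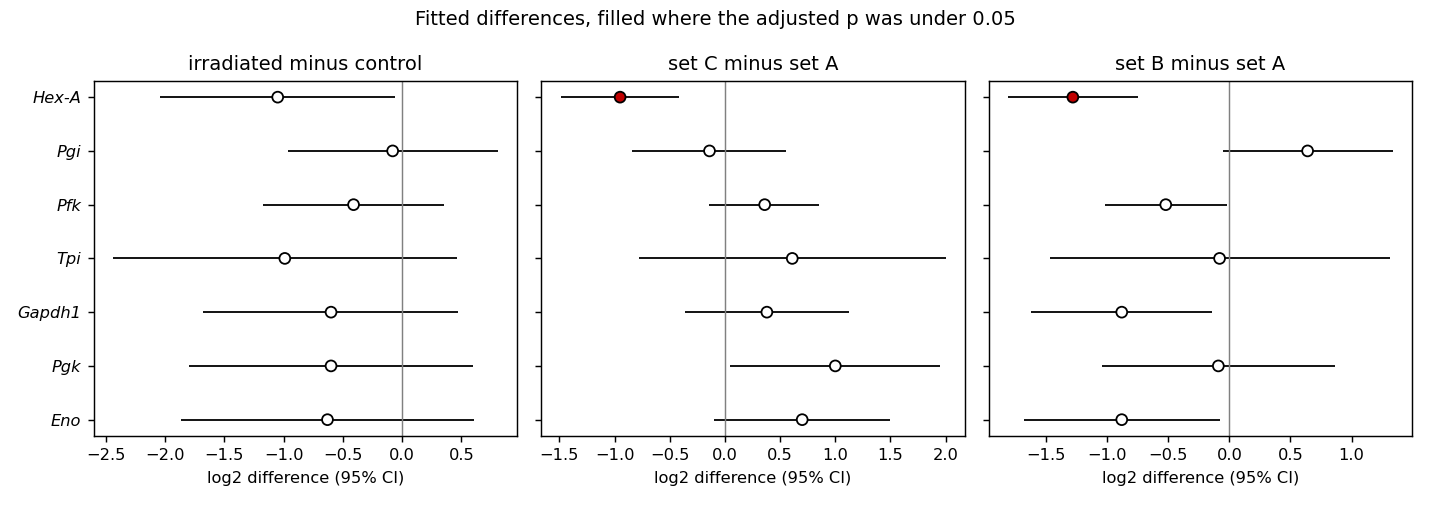
Fitted log2 differences with 95% confidence intervals (limma) for the 7 glycolysis genes: irradiated minus control, set C minus set A, and set B minus set A. Hex-A in both comparisons of replicate sets is the filled point (adjusted p under 0.05); the interval of Hex-A for irradiated minus control, -2.04 to -0.06, leaves out 0 but its adjusted p was 0.978.

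Within replicate sets the irradiated arrays were compared with 1 control array of the same letter. The 4 differences of a set share that array. Their SD therefore covers the spread among irradiated arrays and not the error of the control. In set C, 6 of the 7 genes were lower on all 4 irradiated arrays, and the 4 arrays differed little among themselves. Hex-A differed there by -1.62 ± 0.24 on the log2 scale (mean and SD of 4 differences), Tpi by -1.92 ± 0.20, Pgk by -1.39 ± 0.11, Gapdh1 by -1.18 ± 0.10, Eno by -1.16 ± 0.17 and Pfk by -0.79 ± 0.19. The control of set C thus held 3.79 times the geometric mean Tpi intensity of the irradiated arrays and 3.08 times that of Hex-A. Pgi differed by 0.07 ± 0.20 in that set.

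In set A all 7 genes were lower on all 4 irradiated arrays. Tpi differed by -2.50 ± 0.26, Pgk by -1.31 ± 0.32 and Pgi by -1.29 ± 0.16, while Gapdh1, Eno, Hex-A and Pfk differed by -0.65 ± 0.39, -0.64 ± 0.49, -0.41 ± 0.33 and -0.38 ± 0.26. In set B the direction was mixed. Tpi was above the control on all 4 irradiated arrays (1.45 ± 1.58), as were Pgk (0.89 ± 1.15) and Pgi (0.99 ± 0.30), with the 90 min array far above the other 3 for Tpi and Pgk. Hex-A was below the control on all 4 irradiated arrays of set B (-1.11 ± 0.41).

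**Figure D3:**
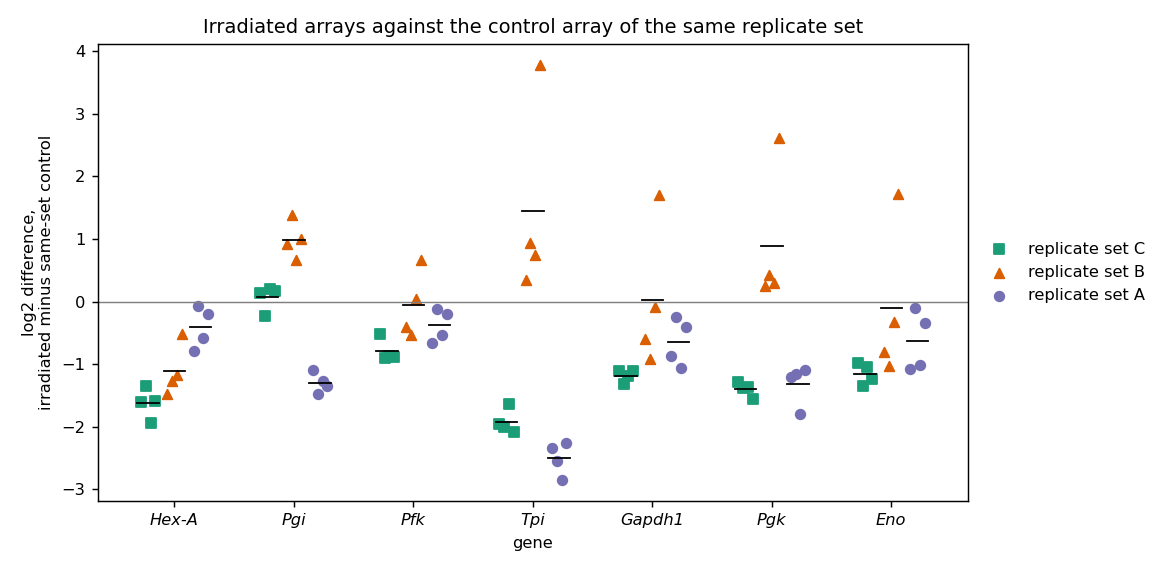
Log2 intensity of each irradiated array minus the control array of the same replicate set, for the 7 glycolysis genes; points are arrays, 4 per set, and bars their mean. Hex-A lies below 0 on 12 of 12 arrays, and Tpi averages -1.92 in set C, 1.45 in set B and -2.50 in set A.

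Over all probe sets tested, 213 (1.89%) were lower than the same-letter control on 12 of 12 irradiated arrays, as Hex-A was. At least 11 of 12, the count of Gapdh1 and Eno, was reached by 6.02% of probe sets, at least 10, that of Pfk, by 11.1%, and at least 8, that of Tpi and Pgk, by 28.9%. At least 5 of 12, the count of Pgi, was reached by 58%.

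A limma model with a term for each set and an effect of irradiation within each set, chosen after the data were seen, tested these differences; the single control of a set is assumed in it to vary like the other arrays. Within set C, 349 probe sets (3.1%) were called (132 without the 60 min array of set C, 1477 without the 90 min array of set B), and Hex-A was among them, at -1.62 ± 0.39 (SE; adjusted p = 0.0416). The control of set C is a single array and one of the 3 high ones, so an effect of irradiation in that set cannot be told apart from that array. The call is also near the threshold: its adjusted p was 0.0594 with a pseudocount of 16, 0.131 after quantile normalisation and between 0.0053 and 0.0991 when single arrays were left out, which ended it for 7 of 14. The other 6 genes were not called within set C. Within sets A and B no probe set of the array was called, and so none of the 7.

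The effect of irradiation in set B minus that in set A was called for 121 probe sets (1.07%), Pgi among them. Leaving out single arrays moved that count widely: it was 1 without any 1 of 8 arrays (5 min B and C, 30, 60 and 90 min A and C), 2 without 5 min A, 48 without 30 min B, 118 without the control of set C, 184 without 60 min B and 651 without 90 min B. Each set's effect rests on 1 control array. The Pgi difference of effects was 2.28 ± 0.42 (SE; limma adjusted p = 0.0397), with 4 of 4 irradiated arrays above the control in set B and 4 of 4 below it in set A. Its size lay between 2.15 and 2.39 when single arrays were left out, and the call was lost for 9 of 13 of them (adjusted p from 0.00621 to 0.0833). The same difference was 3.95 ± 1.24 for Tpi (adjusted p = 0.149) and 2.20 ± 0.94 for Pgk (adjusted p = 0.317). Without the 90 min array of set B these were 3.17 for Tpi (adjusted p = 0.00343) and 1.63 for Pgk (adjusted p = 0.0163). So, for Tpi and Pgk, the call of a difference between the effects in sets B and A depends on whether that 1 array is kept. This contrast tests whether the effects differ and not whether their signs are opposite.

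Between replicate sets, 1 of the 7 glycolysis genes, Hex-A, was called with the settings used throughout, and other settings called further genes. In a limma model of group and letter, 45.6% of probe sets were called for set C against set A and 14.7% for set B against set A. A call of 1 in 7 genes is thus below the share over all probe sets in the first comparison and near it in the second. Both counts depend on the setting: 5130 probe sets were called for set C against set A but 96 with the spike-in level as a covariate, and 1651 for set B against set A but 498 without the 90 min array of set A. Hex-A averaged 8.43 ± 0.75 in set C, 8.10 ± 0.61 in set B and 9.39 ± 0.34 in set A (SD, n = 5 each). It was lower in both than in set A: set C minus set A gave -0.95 ± 0.25 (SE; adjusted p = 0.00685) and set B minus set A -1.28 ± 0.25 (adjusted p = 0.00798). The call for set B held under every alternative run, while the call for set C was lost after quantile normalisation (-0.58, adjusted p = 0.14) and with the spike-in level as a covariate (-1.47, adjusted p = 0.208). The spike-ins were brighter on all arrays of set C than on any of set A, and their part in the result was not tested.

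The other 6 genes were not called between sets with these settings. In set C minus set A, Pgk differed by 1.0 ± 0.44 (adjusted p = 0.0791), Eno by 0.70 ± 0.37, Tpi by 0.61 ± 0.64, Gapdh1 by 0.38 ± 0.34, Pfk by 0.36 ± 0.23 and Pgi by -0.14 ± 0.32. The median of the 7 was 0.38, where that of all probe sets was 0.03. With the spike-in level as a covariate the median was -1.47, and Pgk, Eno, Tpi, Gapdh1 and Pfk all turned negative (-3.07 to -0.73). None of these 5 was called (limma adjusted p from 0.0541 to 0.377), and the covariate itself separates set C from set A. In set B minus set A, Gapdh1 and Eno both differed by -0.88 (SE 0.34 and 0.37, adjusted p = 0.0982 and 0.126), Pfk by -0.52 ± 0.23, Pgi by 0.64 ± 0.32, Pgk by -0.09 ± 0.44 and Tpi by -0.08 ± 0.64. The median was -0.52, against 0.02 over all. With the spike-in level as a covariate, limma called 5 of these genes lower in set B than in set A: Pfk (-1.01), Tpi (-1.76), Gapdh1 (-1.76), Pgk (-1.26) and Eno (-1.79), with adjusted p from 0.00162 to 0.017. After quantile normalisation it called Gapdh1 (-1.08, adjusted p = 0.0331) and Eno (-1.09, adjusted p = 0.0416) lower in set B than in set A, and Pgk higher in set C than in set A (1.17, adjusted p = 0.0422). Pgi was called higher in set B than in set A without the control of set A (1.01, adjusted p = 0.0156) or that of set B (0.96, adjusted p = 0.0266). Without the 90 min array of set B, limma called Gapdh1 (-1.31, adjusted p = 0.00302), Eno (-1.35, adjusted p = 0.00347) and Pfk (-0.72, adjusted p = 0.0241) lower in set B than in set A, and Pgk (adjusted p = 0.00597) and Eno (adjusted p = 0.0116) higher in set C than in set A. For set B against set A, the calls among all probe sets in these fits stayed within 1.5 times of 1651 (14.7%). For set C against set A, after quantile normalisation or without that array, they stayed within 1.5 times of 5130 (45.6%).

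Among themselves some of the genes formed close pairs, given here as correlations of log2 values over the 15 arrays, which share their libraries and scaling. Gapdh1 and Eno had r = 0.99, Pfk and Eno 0.97, Pfk and Gapdh1 0.96, and Tpi and Pgk 0.93. These pairs also varied together: with Pfk, Gapdh1 and Eno, Pgk had r of 0.81 to 0.85 and Tpi 0.67 to 0.75. After set means were removed, Gapdh1 and Eno stayed at 0.99 and Tpi and Pgk reached 0.98. Hex-A was closer to Pfk (0.55, and 0.75 with set means removed) than to Tpi (0.27 and 0.45). Pgi had negative or weak correlations with most others, from -0.44 with Pfk to 0.29 with Tpi, and an r of -0.19 with the mean of the other 6. With set means removed, Pgi had r = 0.57 with Tpi and 0.44 with Pgk, and 0.02 to 0.06 with Pfk, Eno and Gapdh1. With the mean of the 6 genes other than itself, Gapdh1 had r = 0.91, Pgk 0.90, Eno 0.88, Pfk 0.87, Tpi 0.85 and Hex-A 0.38.

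**Figure D4:**
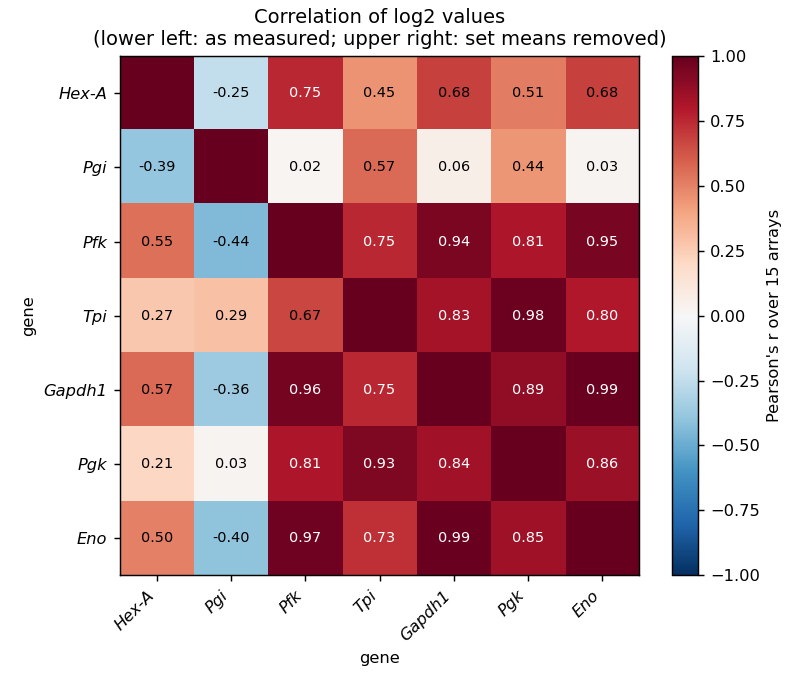
Pearson's r between log2 values of the 7 glycolysis genes over 15 arrays, as measured (lower left) and after the mean of each replicate set was removed (upper right). As measured, Gapdh1, Eno and Pfk are close (0.96 to 0.99), as are Tpi and Pgk (0.93), with 0.67 to 0.85 between these groups. Pgi is the least like the others as measured, though 0.57 with Tpi once set means are removed.

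The spread of the genes over the arrays lay on both sides of that of the array as a whole. The SD over 15 arrays was 1.16 for Tpi, the largest of the 7 and at the 82.7th percentile of tested probe sets, and 0.97 for Eno, 0.91 for Pgk, 0.85 for Gapdh1, 0.79 for Hex-A, 0.56 for Pgi and 0.52 for Pfk. The median SD of all tested probe sets was 0.74. The highest array held 10.95 times the lowest intensity for Eno, 8.80 times for Gapdh1, 7.58 times for Pgk, 4.64 times for Hex-A, 3.98 times for Pfk and 3.19 times for Pgi.

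Genes outside the pathway that followed its mean over the 15 arrays were named by r among 6261 candidate genes. The highest were Jheh2, a juvenile hormone epoxide hydrolase (0.99), and CG15362, png, GIIIspla2, Debcl, rdgB, QC and CG17292 (0.98 each). The lowest were Inx3, an innexin of gap junctions (-0.94), CG14722 and SAK (-0.93 each), and mle (-0.92). With set means removed the highest were grsm, CG15362, Jheh2, Vha36-1 and CG8180 (0.99 each) and Efr (0.98). In all, 149 candidates (2.38%) had an r of at least 0.9, and 277 (4.42%) did with set means removed.

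The png gene encodes the kinase that acts at egg activation on translation of maternal transcripts, and its values show the shared pattern. They were 335.8, 315.6, 369 and 354.8 over the irradiated times in set C, against 902.6 in the control. In set B they were 122.1, 116.2, 142.7 and 860.9 in irradiated embryos, against 183.3 in the control, and in set A 183.1, 289.6, 184.2 and 258.5, against 573.4. The 3 highest arrays were again those of Tpi and Pgk.

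Other steps of the pathway were read from probe sets of further genes. The brighter probe set of Ald1, aldolase, which splits fructose 1,6-bisphosphate, ranged over the 12 irradiated arrays and the 3 control arrays from 3110 to 4416. Its limma differences were -0.14 ± 0.16 for irradiated minus control, 0.03 ± 0.13 for set C minus set A and 0.05 ± 0.13 for set B minus set A. A dimmer probe set of Ald1 disagreed, with intensities of 77.51 to 1080 and a difference of -1.47 ± 0.49 for set C minus set A (adjusted p = 0.0264). Pglym78, phosphoglycerate mutase, ranged from 448.4 to 805.4 and differed by -0.07 ± 0.26 between irradiated and control embryos. ImpL3 (lactate dehydrogenase) is not analysed here, and Gpdh1, glycerol-3-phosphate dehydrogenase, which draws on the triose phosphates, differed by -0.26 ± 0.25. Its 3 dimmer probe sets gave -0.37 ± 0.24, -0.12 ± 0.40 and, in the other direction, 1.29 ± 0.63. None of these was called for irradiation.

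In the list of other glycolytic enzymes and paralogs, 6 of 13 genes passed the filter. Of these 2 were lower and 4 higher in irradiated embryos, none was called, and the median was 0.44; the smallest p went to Hex-t1 (1.42 ± 0.70) among the higher genes and to Ald1 among the lower. For set C against set A, with 45.6% of all probe sets called, 2 of the 6 were, both higher: CG2964 (2.12 ± 0.52, adjusted p = 0.00533) and CG9961 (1.45 ± 0.48, adjusted p = 0.0265). For set B against set A none was.

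Some genes that feed sugar into the pathway were called between replicate sets. None was called for irradiation, where 0% of all probe sets were. Calls of list genes between sets were not recomputed with the spike-in covariate, which moved the count for set C against set A. Of 9 genes for trehalose, glycogen and sugar transport that passed the filter, 5 were lower and 4 higher in irradiated embryos, with a median of -0.19 and none called; Glyp, glycogen phosphorylase, differed by -0.82 ± 0.35 and Tret1-1, a trehalose transporter, by 1.07 ± 0.80. In set C against set A, 2 fell and 5 rose, 7 of 9 called, where 45.6% of all probe sets were. Treh, trehalase, fell by 2.01 (SE 0.28, adjusted p = 0.000234) and Glyp fell by 0.80 (SE 0.19, adjusted p = 0.00405). Glys, glycogen synthase, rose by 0.49, Tps1, which makes trehalose, by 1.81, Pgm1, phosphoglucomutase, by 1.01 and Tret1-1 by 1.89. In set B against set A, where 14.7% of all probe sets were called, 3 of the 9 fell and 1 rose: Treh (-1.42, adjusted p = 0.00847), Glyp (-0.89, adjusted p = 0.011), CG9485 (-0.96, adjusted p = 0.0117) and Glys (0.34, adjusted p = 0.0421). Treh and Glyp, like Hex-A, were thus lower in both sets than in set A.

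The pentose phosphate pathway branches off at glucose 6-phosphate and returns to triose phosphates, and 5 of its 7 listed genes were measured. In irradiated embryos 4 were lower and 1 higher, with a median of -0.46 and none called; Rpi differed by -0.88 ± 0.55 and Rpe by 0.28 ± 0.45. By time the medians were -0.65, -0.66, -0.65 and 0.07. For set C against set A, Rpe (1.36 ± 0.22, adjusted p = 0.000389), Pgls (1.01 ± 0.24, adjusted p = 0.00467) and Taldo (1.20 ± 0.39, adjusted p = 0.0246) were higher, 3 of 5 called where 45.6% of all probe sets were, and for set B against set A none was called. Taldo, transaldolase, had intensities of 3385, 3009, 3498 and 2987 over the irradiated times in set C, against 6839 in the control. Set B had 962.5, 868.8, 1211 and 5094 in irradiated embryos, against 992.3 in the control, and in set A 1421, 1763, 1102 and 1554, against 2659. Within each set the highest array of Taldo was that of Tpi: the control in sets C and A, and the 90 min array in set B.

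All 4 gluconeogenesis genes passed the filter, with 1 lower and 3 higher in irradiated embryos, a median of 0.39 and none called. PCB, pyruvate carboxylase, differed by -1.07 ± 0.43 and Pepck2 by 1.20 ± 0.53. Set C exceeded set A in fbp, fructose-1,6-bisphosphatase (0.58 ± 0.21, adjusted p = 0.0354), and none was called for set B against set A.

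Downstream of pyruvate, 14 of 20 genes of pyruvate dehydrogenase and the citric acid cycle were measured. In irradiated embryos 9 were lower and 5 higher, with a median of -0.15 and none called; Idh differed by -0.72 ± 0.33 and Ogdh by 0.29 ± 0.22. For set C against set A 10 of the 14 were called, where 45.6% of all probe sets were. Of these 5 were lower, led by Idh3a (-1.71 ± 0.23), muc (-1.26 ± 0.19), mAcon1 (-1.26 ± 0.21) and ScsbetaA (-0.68 ± 0.22). Another 5 were higher, led by SdhC (1.01 ± 0.17), Scsalpha1 (1.0 ± 0.19), CG7430 (0.82 ± 0.18) and Mdh1 (0.74 ± 0.23), with adjusted p of these 8 from 0.000213 to 0.0239. For set B against set A, with 14.7% of all probe sets called, 2 were lower, muc (-0.83, adjusted p = 0.0159) and ScsbetaA (-0.76, adjusted p = 0.0393).

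Of 7 listed regulators of the pathway's genes 6 were measured, 5 lower and 1 higher in irradiated embryos, with a median of -0.07 and none called. ERR, the receptor that turns on the pathway in the fly embryo, differed by -0.13 ± 0.32, and bigmax, the partner of the sugar sensor Mondo, by 0.41 ± 0.35. For set C against set A, Mondo (-2.64 ± 0.39), the hypoxia factor sima (-2.90 ± 0.47) and its partner tgo (-2.73 ± 0.45) were lower (adjusted p from 0.000302 to 0.000476), and bigmax was higher (0.87 ± 0.21, adjusted p = 0.00464), 4 of 6 called where 45.6% of all probe sets were. For set B against set A bigmax alone was called, 0.70 ± 0.21 higher (adjusted p = 0.0422).

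Markers of other stages and cells differed between the same arrays. All 13 measured maternal and germ plasm markers of 15 listed, such as osk and otu, were lower in irradiated embryos (median -1.18, 0 called). Their summed intensity ran from 7747 to 29478 on irradiated arrays (median 12942) and from 16042 to 43314 on control arrays (median 31176). The mean of their centred log2 values was 0.24 on the 90 min array of set B and 0.29 to 1.01 on the irradiated arrays of set A, against 1.71, 0.07 and 0.78 on the controls of sets A, B and C, so the order of arrays was not that of the glycolysis genes throughout. In both set C and set B they were lower than in set A for 13 of 13 genes (8 called in either comparison, where 45.6% of all probe sets were called for set C against set A and 14.7% for set B against set A). Their part in the glycolysis differences was not tested.

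Zygotic patterning markers, such as ftz and eve, ran the other way on 2 of the 3 arrays. Of 20 listed, 15 passed the filter, 5 lower and 10 higher in irradiated embryos (median 0.14, 0 called), and 14 were lower in set C than in set A (13 called, where 45.6% of all probe sets were). Their mean centred value was -1.12 on the 90 min array of set B and -0.86 to -1.05 on the irradiated arrays of set C, against -1.56 on the control of set C, 0.27 on the control of set A and 1.07 on the control of set B. Summed intensities ran from 8367 to 28963 on irradiated arrays and from 5734 to 27687 on control arrays. Late embryo markers (11 of 16 listed passed) and hemocyte markers (8 of 10) had medians of 0.32 and 0.60 in irradiated minus control, with 0 called. Their lowest means were on the control of set C, at -1.02 and -1.79. Some measured markers were dim: the lowest intensities were 0.825 (late embryo) and 0.8162 (hemocyte), both on the 60 min array of set A. The median intensities of the arrays were 29.05 to 43.32. The part of these markers in the glycolysis differences was not tested.

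**Figure D5:**
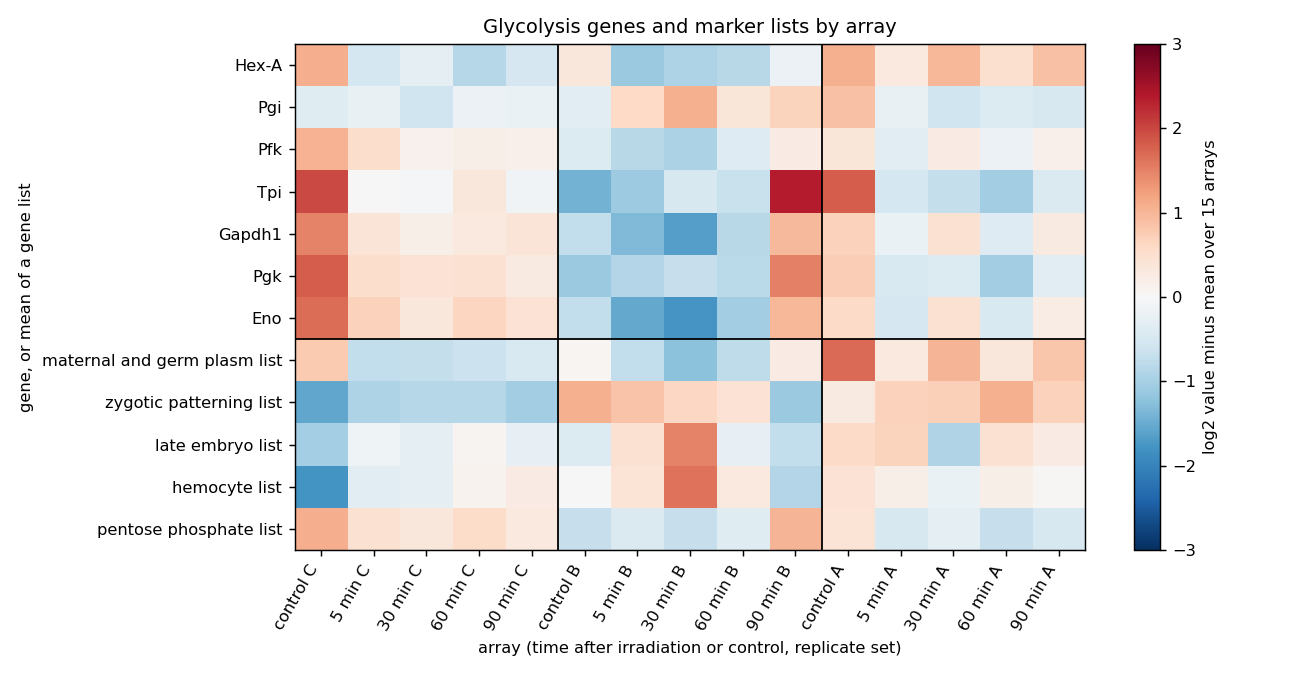
Log2 values on 15 arrays, each gene centred on its mean, for the 7 glycolysis genes and for the means of 5 gene lists; columns are arrays grouped by replicate set and ordered by time, with the control first. The columns 90 min B, control C and control A have the highest means of the 7 glycolysis genes (0.94, 1.25 and 0.87), but not every gene is high there. The maternal and pentose phosphate lists are above 0 on all of these columns, and on other arrays too. The maternal list is at 0.29 to 1.01 on the irradiated arrays of set A, and the pentose phosphate list at 0.30 to 0.54 on those of set C.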

How the data were processed

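Total RNA from pooled embryos was labelled from an oligo(dT) primer and hybridised to 1 array per sample, 15 in all. The authors deposited 1 intensity per probe set. The submitters' processing notes name MAS5 as the tool; version and scaling are not given in the sources used here. The deposited intensity columns have means, after trimming 2% at either end, of 500.01 to 500.02, so they were used as deposited.

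Intensities were transformed as log2(intensity + 1), which understates changes of dim probe sets. Leaving out 183 control probe sets and those with a mean log2 value under the 40th percentile left 11261 of 18952. Linear models were fitted in R 4.3.3 with lmFit and eBayes (trend) of limma 3.58.1, two-sided, with Benjamini-Hochberg adjustment over all 11261 and a threshold of 0.05: a model of the 5 groups, a model of group and letter, and, added after the data were seen, a model of irradiation within each letter. The number of arrays limits the precision. Simulated data were used to test the fits.

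The platform table gave 13646 probe sets 1 symbol, 402 several and 4904 none; 13543 were found in the RefSeq table of Release 6, which changed 0 symbols. Members and gene lists were chosen with earlier results of these data known. Named were all members, aldolase, Pglym78 and ImpL3, list genes that were called (up to 4 per list and direction, otherwise the smallest p in each direction) and the genes closest in pattern to the members' mean, with a mean at or above the 60th percentile. png and Taldo were singled out for their values per array after those were seen.

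Letters were checked for pairing through correlations of same-letter deviations with control: for A, B and C they were 0.465, 0.402 and 0.665 (5 min), 0.217, 0.375 and 0.629 (30 min), 0.484, 0.266 and 0.607 (60 min) and 0.501, -0.299 and 0.311 (90 min). They were positive for all letters at 5, 30 and 60 min. At 90 min they were positive for A and C and negative for B. Alternatives were a pseudocount of 16, no filter or the 60th percentile, quantile normalisation, the spike-in level as a covariate, the letter as a block, no group term and each array left out.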

Additional observations from a re-analysis of the deposited data

Results flagged for a closer look

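Within replicate sets, 21 tests for an array far from the other irradiated arrays of its set (7 genes in 3 sets) singled out 3 values, where chance gives about 1 in 20. Pgk at 90 min in set B, 3013, lay far above the other 3 irradiated arrays of that set. Pfk at 5 min in set C, 1428, lay above its neighbours, and Pgi at 30 min in set C, 440.4, below them.

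Irradiated arrays lay on opposite sides of their set's control in different sets for 3 genes, each set having 1 control array. For Pgi the effect in set B minus that in set A was 2.28 (limma adjusted p = 0.0397), a call lost for 9 of 13 single arrays left out. For Tpi and Pgk the difference did not pass the test with all arrays, and for B minus A it did without the 90 min array of set B (adjusted p = 0.00343 and 0.0163). For Tpi every irradiated array was above the control in set B and below it in sets A and C; the difference of effects was 3.95 for B minus A (limma adjusted p = 0.149) and 3.37 for B minus C (adjusted p = 0.404). For Pgk, with the same directions, it was 2.20 for B minus A (limma adjusted p = 0.317) and 2.28 for B minus C (adjusted p = 0.428).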

How the results depend on the processing

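Each result was recomputed under each alternative; 282 of 314 values under other settings, and 611 of 680 with an array left out, kept their direction and call, or stayed within the spread between replicates (counts within 1.5 times). Some of these values could not move, since a difference at 1 time does not use the arrays of the other irradiated times. The spread allowed for the members' median was as wide as 1.52, at 90 min. With the letter as a replicate block (a paired fit), 0 probe sets were called for each time, the mean and the slope, and the block changed no call of a glycolysis gene; in the mean contrast unadjusted p was then under 0.05 for 1625 probe sets, with 0.0624 as the smallest adjusted p. The replicate block together with quantile normalization, added after the data were seen, called 19 in the mean contrast. With the spike-in level as a covariate the C minus A count was 96, and the members' median was -1.47 for C minus A and -1.52 for B minus A. The estimates for C minus A were then negative for Pfk (-0.73), Tpi (-3.07), Gapdh1 (-1.55), Pgk (-1.57) and Eno (-1.29). None of them was called (limma adjusted p from 0.0541 to 0.377), and the spike-in level separates C from A. Quantile normalization put Pgi at 0.19 for C minus A. For the effect in B minus that in A the counts were 1 with no filter, 196 with the 60th percentile, 18 with quantile normalization and 2 with the spike-in covariate. Within C they were 149 with a pseudocount of 16 and 203 with no filter.

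With single arrays left out, the members' median ran from -1.53 to -0.36 at 5 min, -1.43 to -0.32 at 30 min, -1.41 to -0.29 at 60 min, -0.57 to 0.41 at 90 min and -1.25 to -0.10 in the mean contrast, with the control of B giving the lowest and the control of C the highest value at 5 min. In the mean contrast Pgi ran from -0.29 to 0.33 (without control A) and Pgk from -1.40 to 0.06 (without control C). Pgi for C minus A ran from -0.29 to 0.22, Tpi for B minus A from -0.84 to 0.65 and Pgk from -0.62 to 0.36. The counts ran from 498 (without 90 min A) to 2294 (without control B) for B minus A, from 1 (8 of 13 arrays) to 651 (without 90 min B) for the effect in B minus A, and from 132 (without 60 min C) to 1477 (without 90 min B) within C. The cause of these changes was not tested. Each member had 1 probe set, so using all probe sets gave no other value. Precision is limited by the 3 control arrays.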
